A study of Mus musculus with 12 samples.

Results

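The genes described here are 34 mouse genes of the endoplasmic reticulum (ER): its chaperones, its lectins and disulfide isomerases, the sensors of unfolded protein, 2 translocon proteins and the machinery of ER-associated degradation. They were chosen by name, and the members are all probe sets that the platform annotates with 1 of these names, 82 probe sets in all. Ero1lb, which the platform lists under its present symbol Ero1b, was matched by gene identifier, and a probe set shared between Sec61b and another gene was left out. All 34 were measured, among 18194 genes on the array, and each gene is represented by its brightest probe set unless stated.

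The samples were KH2 cells, a mouse embryonic stem (ES) cell line grown on feeder cells, and RNA was hybridised to Affymetrix mouse expression arrays. The 12 arrays form 4 groups of 3 replicates (A, B and C): cells left without retinoic acid (RA), and cells exposed to 0.3 µM RA for 2, 4 or 6 h. RA, a vitamin A derivative that acts through nuclear receptors, drives differentiation of ES cells. Treated cells received RA in a differentiation medium, and the labels do not say that untreated cells were given that medium, so RA and medium cannot be told apart in any comparison with untreated cells. All cells were then plated on gelatin for 30 min, and the 2 protocol texts differ on whether the attached or the floating cells were taken for RNA. Nothing in the labels ties A, B and C to separate cultures, and the p-values therefore measure only how these samples vary, which may be technical variation.

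Secreted and membrane proteins enter the ER through a translocon, fold there with the help of chaperones, and acquire disulfide bonds and trimmed sugars. When unfolded protein accumulates, the membrane sensors IRE1 (encoded by Ern1), PERK (Eif2ak3) and ATF6 start the unfolded protein response: IRE1 splices the Xbp1 message, PERK slows translation and raises ATF4, and ATF6 is cleaved into a transcription factor. The response raises chaperones and the genes of ER-associated degradation, in which misfolded proteins are recognised, moved back to the cytosol, ubiquitinated and destroyed by the proteasome.

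The deposited values are log2 signal, with array medians between 6.05 and 6.10. Untreated replicate C stood apart: over all probe sets it correlated at 0.993 with each of the other untreated arrays, which correlated at 0.997 with each other, and replicates of an RA group correlated at 0.997 to 0.998. Summed on the linear scale, 12 ES cell markers lay between 76850 and 80058 at 4 h and 75036 and 78889 at 6 h, against 89035 to 92234 without RA, with 1 higher and 7 lower at 4 h and 2 higher and 7 lower at 6 h. The sum of 29 of 30 listed feeder fibroblast markers lay between 11255 and 13123 at 4 h and 9875 and 11167 at 6 h, against 9015 (replicate C) to 13010 without RA, with 6 higher and 2 lower at 4 h and 5 higher and 2 lower at 6 h. In untreated cells, 5 of these markers had a mean below the overall median signal. The feeder sums at 2, 4 and 6 h overlapped those without RA. The median log2 difference of the 29 markers from no RA was 0.25, 0.27 and 0.20 at these times. The corresponding array-wide medians were 0.0043, 0.0023 and -0.014. None of the 29 passed in limma at 2 h, where 10 had an unadjusted p under 0.05, against 3172 of the 18194 genes. The sum of 16 markers of primitive endoderm, a secretory cell type, was 8505 to 9131 at 4 h and 8108 to 8805 at 6 h, against 8695 to 9595 without RA, with 1 higher and 2 lower at each time. At 2 h the 3 sums were 88323 to 90801 for ES cell, 10878 to 12501 for feeder and 8469 to 9404 for primitive endoderm markers. The part of these differences in the results below was not tested. In bulk RNA, fewer cells of a type and less RNA per cell cannot be told apart.

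The ER genes did not move as 1 block. Herpud1 rose within 2 h, Xbp1 and the degradation genes Syvn1, Edem3 and Sel1l rose by 4 h, and the cochaperones Sil1 and Sdf2l1 fell by 4 h, while the major chaperones Hspa5, Hsp90b1, Calr and Canx did not pass the test at any time by their brightest probe sets. At 2 h against no RA, 1 of the 34 was higher, where 1.50% of all genes were higher, and none was lower, where 1.19% of all genes were lower (limma, Benjamini-Hochberg adjusted p under 0.05 over all 18194 genes). At an unadjusted p under 0.05, 6 of the 34 passed at 2 h, where 3172 of the 18194 genes did. At 4 h, 5 were higher (12.8% of all genes) and 4 were lower (14.1% of all genes). At 6 h, 5 were higher (15.0% of all genes) and 6 were lower (14.7% of all genes). The members called were 26.5% of the 34 at 4 h and 32.4% at 6 h, close to the 26.9% and 29.7% of all genes called at those times. Without adjustment, 21 members had a p under 0.05 at 4 h and 13 at 6 h, against 6671 and 7111 of the 18194 genes.

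The difference between 4 and 2 h does not use the untreated means, although all 12 arrays set its error. Here 6 of the 34 were higher at 4 h than at 2 h (12.7% of all genes) and 5 were lower (11.9% of all genes). Between 6 and 4 h, no member passed in limma, where 0.313% of the 18194 genes passed as higher and 0.275% as lower. At an unadjusted p under 0.05, 2 members passed (Creld2 and Sel1l, both lower at 6 h), against 2386 of the 18194 genes. The F test over the 4 groups called 12 of the 34 members, or 35.3%, against 36.3% of all genes. The median log2 difference of the 34 against no RA was 0.018 at 2 h, 0.044 at 4 h and -0.037 at 6 h, and that of all genes was 0.0043, 0.0023 and -0.014. The 3 comparisons with no RA share their untreated arrays, so their values are given side by side and are not independent.

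**Figure D1:**
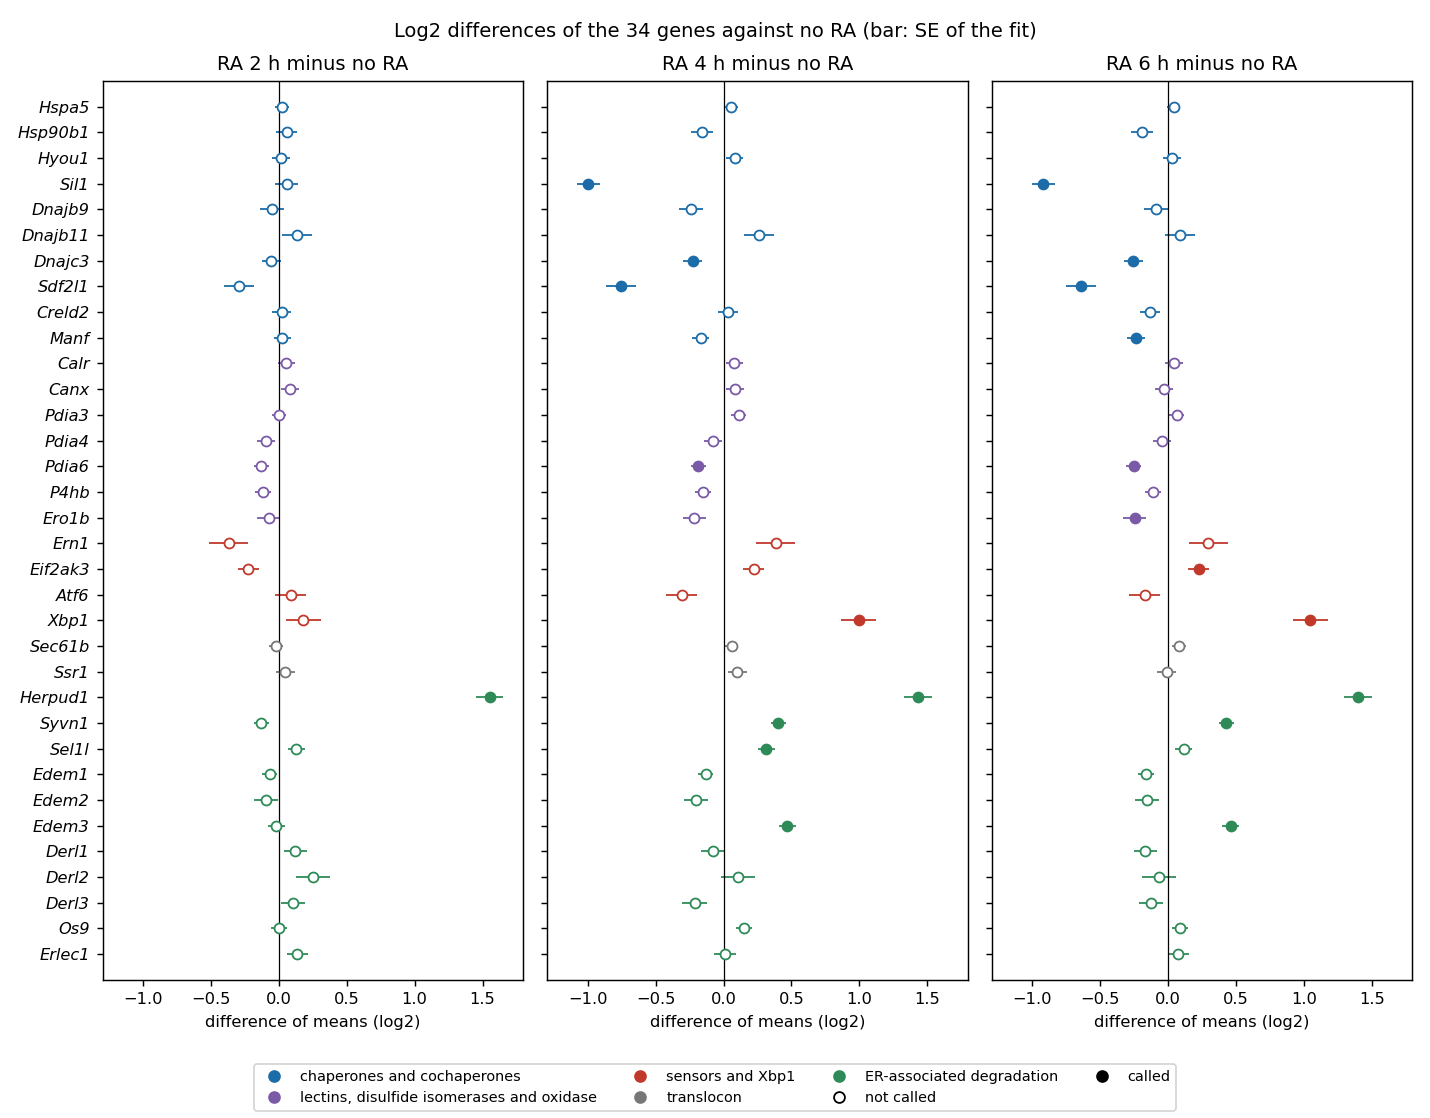
Log2 difference of the group means against no RA (x axis) for each of the 34 genes (rows, coloured by role) at 2, 4 and 6 h. Points are limma estimates, bars are their SE, and filled points passed at an adjusted p under 0.05. Herpud1 stands alone on the right at 2 h, and Xbp1 (1.00 and 1.05) and Sil1 (-1.0 and -0.92) join it at the outer ends at 4 and 6 h.

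Among the 11 genes of ER-associated degradation, 1 rose at 2 h, 4 at 4 h and 3 at 6 h against no RA (limma), where 1.50%, 12.8% and 15.0% of all genes rose. None fell, where 1.19%, 14.1% and 14.7% of all genes fell. At an unadjusted p under 0.05, 1 was lower at 2 h, 3 at 4 h and 1 at 6 h. At that limit 3172, 6671 and 7111 of the 18194 genes passed in either direction. The largest change was in Herpud1, which encodes a small ER membrane protein that brings the ubiquitin ligase complex together. Its log2 signal was 8.97, 9.44 and 9.31 without RA, 10.84, 10.77 and 10.77 at 2 h, 10.64, 10.74 and 10.62 at 4 h and 10.63, 10.57 and 10.71 at 6 h. All 9 RA arrays lay above all 3 untreated arrays, and the untreated arrays were the more widely spread. Herpud1 rose by 1.55 ± 0.10 at 2 h, a 2.93-fold increase (SE, adjusted p = 4.60e-06), and its difference from no RA was 1.43 ± 0.10 at 4 h and 1.40 ± 0.10 at 6 h. Between 2 and 4 h it differed by -0.12 ± 0.10 (adjusted p = 0.443), so no further rise was detected after 2 h. Its other probe set gave 1.47, 1.25 and 1.24 at 2, 4 and 6 h, called each time. Calls and adjusted p-values of further probe sets, here and below, come from a fit of every probe set.

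The Herpud1 promoter is shown because this gene alone of the 34 rose at 2 h. The window runs from 250 bases before to 50 bases after the annotated start of transcription, chr8:94386179-94386478 on the plus strand of GRCm38.p6 in the RefSeq annotation. Capitals mark, in order, TGATGNAA on the reverse strand, a core of the elements bound by C/EBP-ATF dimers, and ATTGG, 1 base and CCACG, the second form of the ER stress response element.
Herpud1: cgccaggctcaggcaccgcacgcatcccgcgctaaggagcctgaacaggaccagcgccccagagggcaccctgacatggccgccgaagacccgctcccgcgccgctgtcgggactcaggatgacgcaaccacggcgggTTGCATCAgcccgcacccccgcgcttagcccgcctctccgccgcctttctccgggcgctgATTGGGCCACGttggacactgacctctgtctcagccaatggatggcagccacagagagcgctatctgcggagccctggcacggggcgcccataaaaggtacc
These are matches of letters, and binding to them was not measured.

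Syvn1 encodes HRD1, the ubiquitin ligase at the centre of the degradation complex, and Sel1l encodes its partner that holds the substrate receptors. For Syvn1 the log2 signal was 9.48, 9.43 and 9.36 without RA, 9.34, 9.27 and 9.28 at 2 h, 9.82, 9.85 and 9.82 at 4 h and 9.80, 9.87 and 9.89 at 6 h. Every array at 4 and 6 h lay above every array at 2 h and without RA, and the 2 h arrays were the lowest. Syvn1 rose by 0.40 ± 0.056 at 4 h, or 1.32-fold, and by 0.43 ± 0.056 at 6 h (SE, adjusted p = 0.000287 and 0.000150), after a difference of -0.13 ± 0.056 at 2 h that did not pass (adjusted p = 0.260). Its other probe set was called at the same times, at 0.38 and 0.37. The Syvn1 window at chr19:6046326-6046625 (plus strand) holds the first form of the ER stress response element, in capitals, which is CCAAT, 9 bases and CCACG.
Syvn1: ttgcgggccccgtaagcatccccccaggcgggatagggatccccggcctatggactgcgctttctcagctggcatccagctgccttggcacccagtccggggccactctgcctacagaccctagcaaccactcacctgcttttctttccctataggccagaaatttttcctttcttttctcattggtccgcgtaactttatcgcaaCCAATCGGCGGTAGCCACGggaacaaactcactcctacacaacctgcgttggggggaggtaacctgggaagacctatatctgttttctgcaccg
For Sel1l the log2 signal was 9.75, 9.79 and 9.58 without RA, 9.82, 9.79 and 9.88 at 2 h, 10.03, 10.03 and 10.00 at 4 h and 9.82, 9.81 and 9.83 at 6 h. The 4 h arrays lay above all others, and the 6 h arrays lay within the range of the 2 h arrays. Sel1l rose by 0.31 ± 0.062 at 4 h (SE, adjusted p = 0.00290), and its 6 h difference of 0.12 ± 0.062 did not pass (adjusted p = 0.198). Its 4 other probe sets were not called at 4 h and gave -0.011 to 0.16, and with the mean of its probe sets the 4 h call was lost (0.15, adjusted p = 0.0522). Sel1l was also higher at 4 h than at 2 h (0.19 ± 0.062, adjusted p = 0.0479), a call kept only when the array left out was untreated replicate B or C (otherwise 0.17 to 0.21).

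The 3 Edem genes encode mannosidase-like proteins that trim the sugars of misfolded glycoproteins and so commit them to degradation, and they did not move together. Edem3 had log2 signals of 9.82, 9.77 and 9.66 without RA, 9.81, 9.66 and 9.73 at 2 h, 10.23, 10.26 and 10.18 at 4 h and 10.25, 10.21 and 10.18 at 6 h. Every 4 and 6 h array lay above every untreated and 2 h array. Edem3 rose by 0.47 ± 0.063 at 4 h and 0.46 ± 0.063 at 6 h, 1.39-fold and 1.38-fold (SE, adjusted p = 0.000224 and 0.000195). Its other probe set gave 0.094 and 0.061 against no RA, neither called, and 0.44 between 4 and 2 h, which was called (adjusted p = 0.0250). Edem1 gave -0.13 ± 0.058 at 4 h and -0.16 ± 0.058 at 6 h (adjusted p = 0.116 and 0.0503), and Edem2 -0.20 ± 0.091 and -0.16 ± 0.091, none of which passed. The Edem1 value at 6 h missed the threshold narrowly and passed without RA 2 h replicate C (-0.16, adjusted p = 0.0384). The second Edem1 probe set was called higher at 4 h (0.23).

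The derlins form part of the channel through which substrates leave the ER. Against no RA none of the 3 passed at any time: Derl1 gave 0.12, -0.077 and -0.17 at 2, 4 and 6 h, Derl2 0.25, 0.11 and -0.068, and Derl3 0.10, -0.21 and -0.13. Derl3 was lower at 4 h than at 2 h, with log2 signals of 7.92, 7.94 and 8.06 at 4 h against 8.35, 8.40 and 8.12 at 2 h. The arrays of those groups did not overlap, and the difference was -0.32 ± 0.090 (SE, adjusted p = 0.0229). It did not pass when RA 2 h replicate A or B, or RA 4 h replicate A or B, was left out (-0.30 to -0.26). Os9 and Erlec1 encode lectins that read the trimmed sugars and deliver substrates to Sel1l. Neither passed against no RA by its brightest probe set: Os9 gave 0.0018, 0.15 and 0.088, and Erlec1 0.14, 0.012 and 0.075. The 2 other Erlec1 probe sets were called higher at 4 h (0.37 and 0.40) and at 6 h (0.56 and 0.36).

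**Figure D2:**
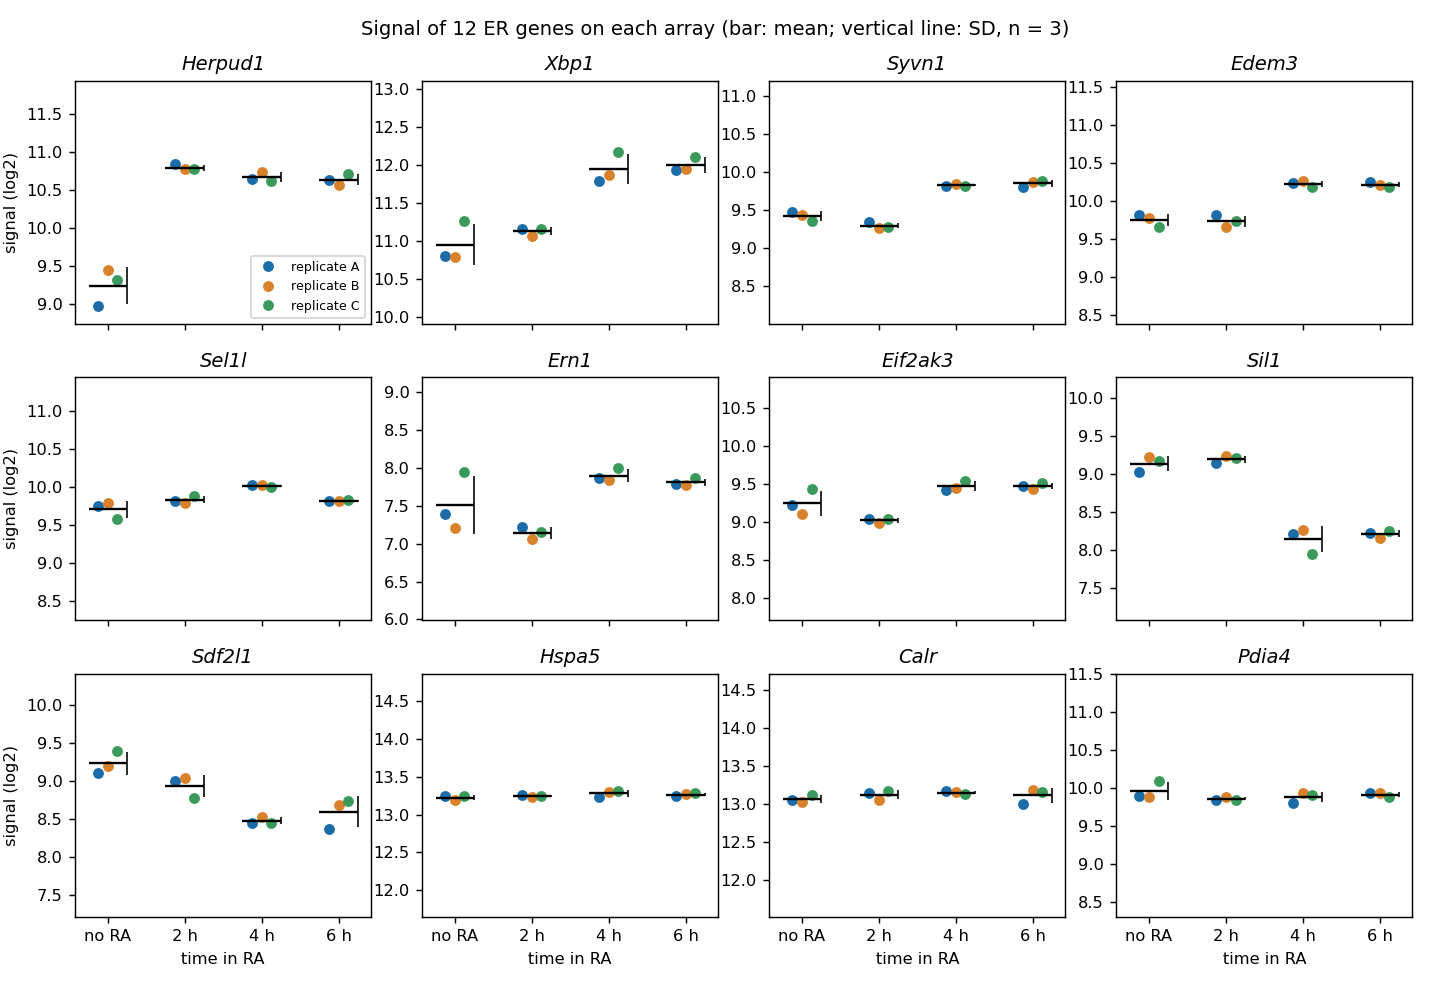
Log2 signal on each of the 12 arrays for 12 of the genes, over time in RA, with replicates coloured. Horizontal bars are group means and vertical lines are SD (n = 3), and every panel spans the same log2 range. Herpud1 is raised at all 3 times, Xbp1, Syvn1 and Edem3 at 4 and 6 h, Sil1 and Sdf2l1 are lowered at 4 and 6 h, and Hspa5 lies between 13.19 and 13.31 on every array.

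The 4 genes of the signalling arm were all called between 4 and 2 h, where 24.6% of all genes were called, and with the mean of each gene's probe sets Xbp1 alone was. Xbp1, whose message IRE1 splices to make the transcription factor that drives many degradation genes, had log2 signals of 10.80, 10.78 and 11.26 without RA, 11.16, 11.06 and 11.16 at 2 h, 11.79, 11.87 and 12.17 at 4 h and 11.93, 11.94 and 12.11 at 6 h. All 6 arrays at 4 and 6 h lay above the 6 others, and untreated replicate C was the highest untreated array. Xbp1 rose by 1.00 ± 0.13 at 4 h, 2.00-fold, and by 1.05 ± 0.13 at 6 h, 2.07-fold (SE, adjusted p = 0.000188 and 0.000105). At 2 h it gave 0.18 ± 0.13 (adjusted p = 0.494). The other 3 probe sets of Xbp1 were called at both times, at 0.60 to 0.91 at 4 h and 0.67 to 0.98 at 6 h. These values measure the message in total, and its splicing was not analysed here.

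Ern1 and Eif2ak3, the genes of the sensors IRE1 and PERK, were at their lowest mean at 2 h. Ern1 had log2 signals of 7.39, 7.21 and 7.94 without RA, 7.22, 7.06 and 7.15 at 2 h, 7.86, 7.84 and 7.99 at 4 h and 7.79, 7.77 and 7.86 at 6 h. The 4 h arrays lay above all 2 h arrays, and the untreated arrays overlapped both groups, with B (7.21) within the range at 2 h and C (7.94) within that at 4 h. Ern1 was higher at 4 h than at 2 h by 0.76 ± 0.14, 1.69-fold (SE, adjusted p = 0.00265), and against no RA it gave -0.37, 0.38 and 0.30, none called. Eif2ak3 had log2 signals of 9.22, 9.10 and 9.43 without RA, 9.04, 8.99 and 9.04 at 2 h, 9.42, 9.45 and 9.54 at 4 h and 9.47, 9.44 and 9.51 at 6 h. It was higher at 4 h than at 2 h by 0.45 ± 0.077 (SE, adjusted p = 0.00157) with no overlap of arrays. Against no RA it gave 0.22 ± 0.077 at 4 h (adjusted p = 0.0501) and rose by 0.23 ± 0.077 at 6 h (adjusted p = 0.0448), a call lost when any array other than untreated replicate C was left out (0.15 to 0.24). Its 2 other probe sets, both under the overall median, gave -0.16 and -0.15 at 6 h, and with the mean of the probe sets the sign turned (-0.029, adjusted p = 0.884). For both genes the 4 h against 2 h call rests on the brightest probe set: none of the others was called, and with the mean of the probe sets the differences were 0.17 for Ern1 and 0.24 for Eif2ak3 (adjusted p = 0.0980 and 0.135).

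Atf6, the sensor that is itself a transcription factor, differed in the opposite direction. Its log2 signals were 9.42, 9.42 and 8.90 without RA, 9.31, 9.39 and 9.31 at 2 h, 8.94, 8.94 and 8.94 at 4 h and 9.08, 9.03 and 9.12 at 6 h. The 4 h arrays lay below all 2 h arrays, and among the untreated arrays A and B were high and C was low. Atf6 was lower at 4 h than at 2 h by 0.40 ± 0.11 (SE, adjusted p = 0.0244), and against no RA it gave 0.088, -0.31 and -0.17, none called. The call between 4 and 2 h did not pass when any 1 of the 6 arrays compared was left out (-0.41 to -0.37, adjusted p = 0.0555 to 0.0827). The 2 other Atf6 probe sets gave 0.029 and 0.071 between 4 and 2 h, neither called.

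Of the 10 chaperones and cochaperones, none rose against no RA at any time in limma (1 was higher at 4 h at an unadjusted p under 0.05), while 3 fell at 4 h and 4 at 6 h, where 14.1% and 14.7% of all genes fell. At an unadjusted p under 0.05, 5 were lower at each of these times, where 6671 and 7111 of the 18194 genes passed in either direction. Sil1, the nucleotide exchange factor that releases substrates from the chaperone BiP, changed most. Its log2 signals were 9.03, 9.22 and 9.17 without RA, 9.14, 9.24 and 9.21 at 2 h, 8.21, 8.27 and 7.95 at 4 h and 8.23, 8.16 and 8.25 at 6 h. The 6 arrays at 4 and 6 h lay below the 6 others. Sil1 fell by 1.00 ± 0.084 at 4 h, 1.99-fold, and by 0.92 ± 0.084 at 6 h, 1.89-fold (SE, adjusted p = 1.13e-05 and 1.28e-05), with 0.058 ± 0.084 at 2 h (adjusted p = 0.760). It has 1 probe set. Hyou1, the other exchange factor of BiP, gave 0.016, 0.082 and 0.030 and did not pass.

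Sdf2l1, an ER-lumen partner of the BiP cochaperone complex, had log2 signals of 9.10, 9.20 and 9.40 without RA, 9.0, 9.04 and 8.77 at 2 h, 8.45, 8.53 and 8.45 at 4 h and 8.36, 8.68 and 8.74 at 6 h. Every RA array lay below every untreated array, and the 2 h arrays lay between the untreated arrays and those at 4 h. Sdf2l1 fell by 0.75 ± 0.11 at 4 h and 0.64 ± 0.11 at 6 h, 1.69-fold and 1.56-fold (SE, adjusted p = 0.000417 and 0.000974), and its 2 h difference of -0.29 ± 0.11 did not pass (adjusted p = 0.198). The J-domain cochaperones recruit BiP to its substrates. Of the 3 measured, Dnajc3 fell by 0.23 ± 0.070 at 4 h and 0.26 ± 0.070 at 6 h (SE, adjusted p = 0.0312 and 0.0154), Dnajb9 gave -0.24 and -0.093, and Dnajb11 0.26 and 0.086, the last 2 genes without a call. Dnajc3 had log2 signals of 9.04, 8.95 and 8.92 at 4 h and 8.92, 8.97 and 8.94 at 6 h, against 9.09, 9.19 and 9.31 without RA, and these groups did not overlap. The 4 other Dnajc3 probe sets differed: the one that fell most did so by 0.64 and 0.61 at 4 and 6 h, and the 3 others gave -0.14 to 0.049 at 4 h without a call. At 6 h 1 of these 3 was called lower (-0.27, adjusted p = 0.0293). In that fit of every probe set, the brightest one missed the threshold at 4 h (adjusted p = 0.0529).

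The 4 h call of Dnajc3 was lost on leaving out B or C of the untreated arrays, or B or C at 4 h (-0.23 to -0.17), and its 6 h call without RA 6 h replicate A (-0.24, adjusted p = 0.0513). Without untreated replicate A, Dnajb9 and Dnajb11 were called at 4 h (-0.33 and 0.35, adjusted p = 0.0142 and 0.0421). Manf, a small secreted ER protein that also binds BiP, had log2 signals of 11.53, 11.66 and 11.64 at 6 h against 11.85, 11.87 and 11.82 without RA, which did not overlap. It fell by 0.24 ± 0.064 at 6 h (SE, adjusted p = 0.0143), a call lost without RA 6 h replicate A (-0.20, adjusted p = 0.0645). It was also lower at 4 h than at 2 h (-0.19 ± 0.064, adjusted p = 0.0458), a call kept only when the array left out was untreated replicate C, RA 2 h replicate C or RA 6 h replicate A (otherwise -0.22 to -0.14).

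Hspa5, which encodes BiP, the main Hsp70 chaperone of the ER and the usual marker of the unfolded protein response, was measured at 13.24, 13.19 and 13.24 without RA, 13.26, 13.23 and 13.24 at 2 h, 13.23, 13.30 and 13.31 at 4 h and 13.24, 13.27 and 13.28 at 6 h. All 4 groups overlapped, with every array between 13.19 and 13.31. Its differences against no RA were 0.022 ± 0.051 at 2 h, 0.055 ± 0.051 at 4 h and 0.040 ± 0.051 at 6 h (SE), and their 95% confidence intervals were -0.089 to 0.13, -0.056 to 0.17 and -0.070 to 0.15. These values are of the brightest Hspa5 probe set. The 2 dimmer ones were higher at each time without a call. At 2, 4 and 6 h, 1 gave 0.10, 0.11 and 0.12 and the other 0.19, 0.15 and 0.12. Hsp90b1, the ER Hsp90, gave 0.057, -0.16 and -0.19 without a call, while its second probe set was called lower at 4 and 6 h (-0.52 and -0.58, adjusted p = 0.0362 and 0.0193). With the mean of both probe sets Hsp90b1 was called lower at 4 h (-0.34, adjusted p = 0.0267) and 6 h (-0.39, adjusted p = 0.0125). The 6 h value of the first probe set passed without RA 4 h replicate C (adjusted p = 0.0429). Creld2, a gene induced by ER stress, gave 0.019, 0.034 and -0.13. The Hspa5 promoter is shown for comparison with Herpud1 and Syvn1, since it holds the first form of the ER stress response element, in capitals, at chr2:34771840-34772139 on the plus strand.
Hspa5: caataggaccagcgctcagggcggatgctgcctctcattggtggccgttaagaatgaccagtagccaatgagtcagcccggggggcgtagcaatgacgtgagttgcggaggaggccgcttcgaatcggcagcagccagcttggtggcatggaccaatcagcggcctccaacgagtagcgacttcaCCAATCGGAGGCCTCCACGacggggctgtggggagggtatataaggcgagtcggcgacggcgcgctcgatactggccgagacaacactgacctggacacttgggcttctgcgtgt

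The 7 lectins, disulfide isomerases and oxidases gave no rise at any time in limma, nor at an unadjusted p under 0.05, with 1 fall at 4 h and 2 at 6 h against no RA, where 14.1% and 14.7% of all genes fell. Pdia6, a disulfide isomerase that also acts on IRE1, had log2 signals of 11.91, 11.88 and 12 without RA, 11.83, 11.80 and 11.77 at 2 h, 11.71, 11.74 and 11.78 at 4 h and 11.65, 11.70 and 11.68 at 6 h. All 9 RA arrays lay below the 3 untreated arrays. Pdia6 fell by 0.19 ± 0.055 at 4 h and 0.25 ± 0.055 at 6 h, 1.14-fold and 1.19-fold (SE, adjusted p = 0.0253 and 0.00406), and gave -0.13 ± 0.055 at 2 h (adjusted p = 0.245). Its second probe set, under the median of all values, gave 0.0058 and 0.14. The 4 h call was lost without untreated replicate C or RA 4 h replicate A or B (-0.18 to -0.15), and with the mean of both probe sets neither time was called (-0.090 and -0.059).

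Ero1b, the oxidase that recharges the disulfide isomerases, had log2 signals of 8.07, 8.19 and 8.29 at 6 h against 8.31, 8.37 and 8.61 without RA. The 6 h arrays lay below the untreated arrays by a small margin. It fell by 0.25 ± 0.085 at 6 h (SE, adjusted p = 0.0471), a call kept only when untreated replicate A or RA 6 h replicate C was the array left out (otherwise -0.28 to -0.15, adjusted p = 0.0538 to 0.175). At 4 h its difference of -0.22 did not pass (adjusted p = 0.0859), but passed without untreated replicate A (-0.28, adjusted p = 0.0447). The other disulfide isomerases did not pass: at 2, 4 and 6 h, Pdia3 gave 0.00079, 0.11 and 0.064, Pdia4 -0.10, -0.078 and -0.045, and P4hb -0.12, -0.15 and -0.11. Calnexin (Canx) and calreticulin (Calr) hold glycoproteins while they fold. Calr gave 0.056, 0.081 and 0.044 and Canx 0.081, 0.084 and -0.029, with 95% confidence intervals at 4 h of -0.059 to 0.22 for Calr and -0.063 to 0.23 for Canx. The 2 dimmer Canx probe sets were higher without a call, at 0.31 and 0.22 at 4 h and 0.14 and 0.21 at 6 h. The 2 translocon genes, Sec61b of the channel and Ssr1 of the complex beside it, did not pass either by their brightest probe sets. Sec61b gave -0.018, 0.059 and 0.083 and Ssr1 0.047, 0.10 and -0.011.

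All probe sets of Herpud1, Xbp1 and Syvn1 were called in the same direction at 4 h, and those of several other genes were not. Of the 34 genes, 9 have 1 probe set, and no brightest probe set had a mean below 6.07, the overall median signal, although 14 of the 82 member probe sets did. The lowest value of a brightest probe set on any array was 7.06, for Ern1, and no signal was tested against background. A probe set of Ssr1 was lower at 4 h (-0.45, adjusted p = 0.0199) and another was higher (0.30, adjusted p = 0.0256), where the brightest gave 0.10. The second probe set of Edem1 was higher at 4 h (0.23, adjusted p = 0.0207), opposite in sign to the brightest. For Erlec1 the 2 dimmer probe sets rose by 0.37 and 0.40 at 4 h (adjusted p = 0.0410 and 0.00925), where the brightest gave 0.012, and the mean of all 3 was called higher at 4 h (0.26) and 6 h (0.33). Which transcripts these probe sets read was not analysed here.

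**Figure D3:**
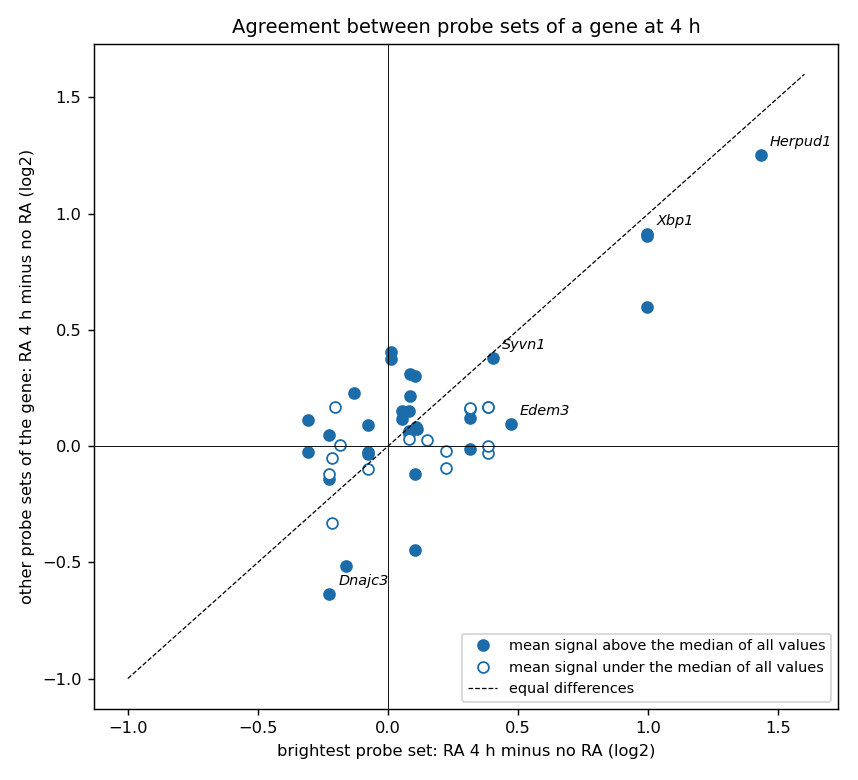
Log2 difference at 4 h against no RA of the brightest probe set of a gene (x axis) and of each of its other probe sets (y axis), for genes with more than 1. Open points have a mean signal under the median of all values, and the dashed line marks equal differences. Herpud1 (1.43 against 1.25), Syvn1 and all but 1 of the Xbp1 points lie near the line, and Edem3 lies far below it (0.47 against 0.094).

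Untreated replicate C moved several of these genes. Across the 34, the median distance of C from the mean of A and B was 0.161 in log2 units, against 0.150 over all genes, and that between A and B was 0.0509. In 6 genes C lay more than 0.3 away: Ern1 (0.64), Xbp1 (0.47) and Edem2 (0.33) were higher in C, and Derl2 (-0.58), Atf6 (-0.52) and Dnajb11 (-0.49) lower. Without C, Ern1 was higher at 4 h by 0.60 (adjusted p = 0.000207) and Eif2ak3 by 0.31 (adjusted p = 0.00256), and Atf6 was lower (-0.48, adjusted p = 8.10e-05). At 6 h without C, Ern1 (0.51) was also called higher, and Atf6 (-0.35), Derl2 (-0.26), Derl1 (-0.24) and Creld2 (-0.22) lower. In the step between 4 and 2 h, Hsp90b1 (-0.22) and Dnajb9 (-0.19) then also passed as lower. The calls of Herpud1, Xbp1, Syvn1, Edem3, Sil1 and Sdf2l1 were the same with and without C.

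**Figure D4:**
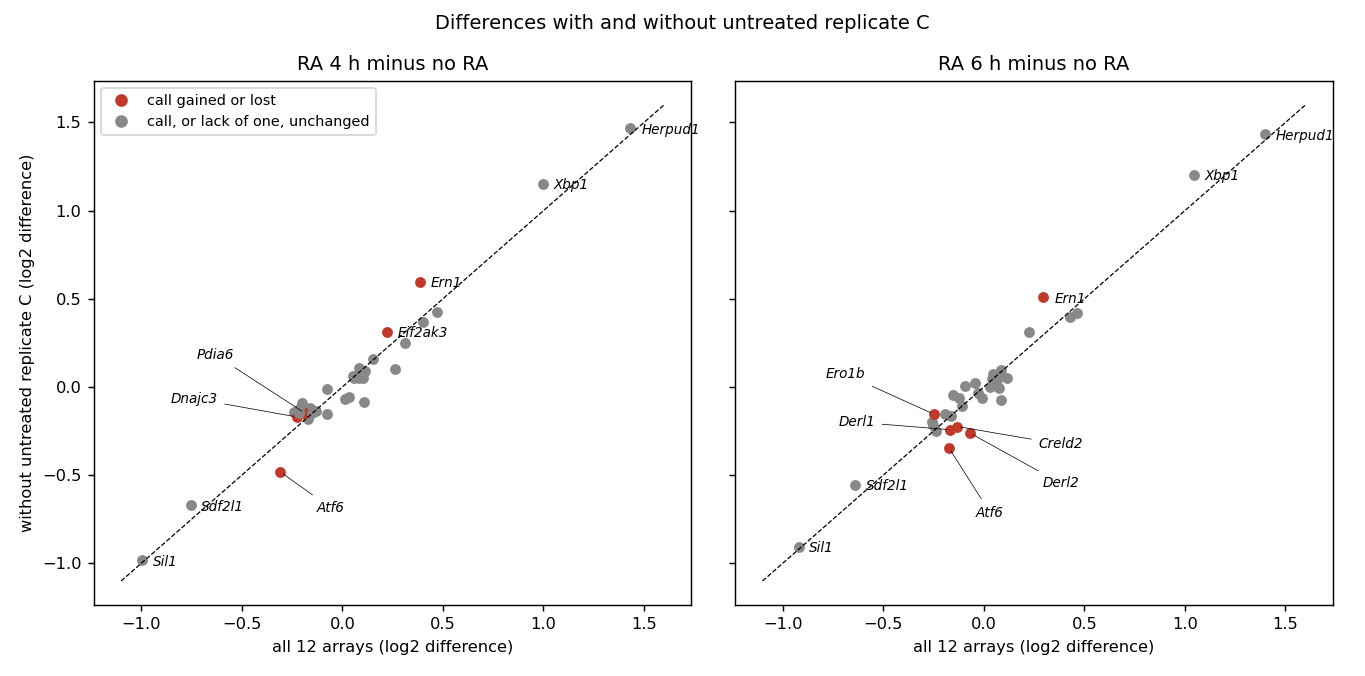
Log2 difference against no RA of the 34 genes with all 12 arrays (x axis) and without untreated replicate C (y axis) at 4 h (left) and 6 h (right). Red points gained or lost a call when C was left out, and the dashed line marks equal differences. Herpud1, Sdf2l1 and Sil1 lie near the line and Xbp1 somewhat above it, while Ern1 (0.38 with C and 0.60 without at 4 h) and Atf6 (-0.31 and -0.48) move away from 0.

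Promoter windows of 28 of the 34 genes were found in the RefSeq table (GRCm38.p6), 1 of them with 2 windows. Erlec1, Manf, Derl1, Hyou1, Sil1 and Atf6 were not matched there. Both strands were searched for 4 motifs with exact letters. The first form of the ER stress response element, to which ATF6 and XBP1 bind together with NF-Y, was found in 10 of the 28 genes, against 0.119% of all 32851 promoters. The elements are printed 5′ to 3′ on the strand that carries them, to show what the genes share and how the 9 bases between the fixed ends differ, with those fixed ends in capitals.
Hspa5: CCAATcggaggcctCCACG
Hsp90b1: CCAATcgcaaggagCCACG
Hsp90b1: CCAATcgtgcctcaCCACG
Dnajc3: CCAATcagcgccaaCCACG
Creld2: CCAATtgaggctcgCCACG
Calr: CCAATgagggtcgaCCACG
Canx: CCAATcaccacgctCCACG
Pdia6: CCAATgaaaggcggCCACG
Ero1b: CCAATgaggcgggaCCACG
Syvn1: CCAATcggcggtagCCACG
Derl3: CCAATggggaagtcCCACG
The second form of the element, ATTGG, 1 base and CCACG, was found in 2 of the 28 genes, against 0.0365% of all promoters.
Herpud1: ATTGGgCCACG
Dnajb11: ATTGGcCCACG
The core of the C/EBP-ATF element, TGATGNAA, was found in Herpud1 alone among the 28, against 3.97% of all promoters, and TGACGTGG, a core of the XBP1-bound element, in none, against 0.676%.

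Of the 10 genes with it, 1 was higher (Syvn1) and 2 lower (Dnajc3 and Pdia6) at 4 h, and 1 was higher (Syvn1) and 3 lower (Dnajc3, Pdia6 and Ero1b) at 6 h, near the shares of all genes (12.8% higher and 14.1% lower at 4 h, 15.0% and 14.7% at 6 h). Their median log2 difference was -0.063 at 4 h and -0.13 at 6 h. Neither Xbp1, Edem3 nor Sel1l, which rose, held any of the 4 motifs in its window, and 12 of the 28 genes held at least 1. Of the 2 genes with the second element, Herpud1 rose at all 3 times and Dnajb11 gave 0.14, 0.26 and 0.086 without a call. A match gives no evidence of binding, and a window without one says nothing about the factor.

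**Figure D5:**
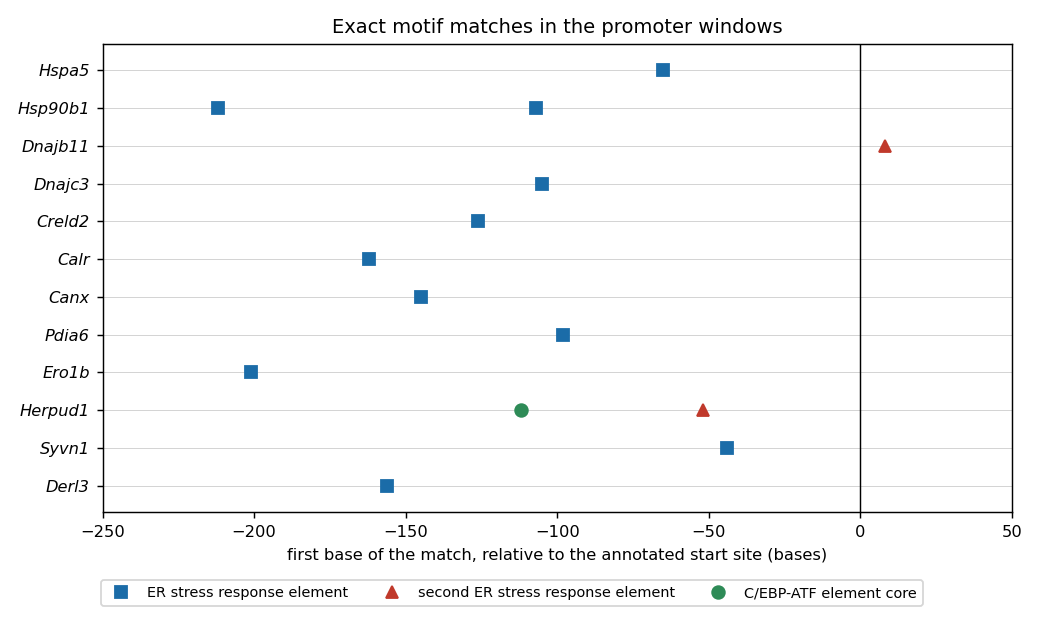
Position of the exact motif matches in the promoter windows of the 12 genes that hold any, as the first base of the match relative to the annotated start of transcription (vertical line at 0). Squares are the first form of the ER stress response element, triangles the second form and the circle the C/EBP-ATF core. The squares lie between -212 and -44, and the triangle of Dnajb11 lies at 8, after its start.

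Genes of the same pathway outside the 34 were counted in 6 lists. These were chosen with earlier results of these data known, so their counts beside those of all genes are descriptive and no test of enrichment. The list of the PERK and ATF4 branch also holds Eif2ak1, Eif2ak2 and Eif2ak4, and the activity of PERK was not measured. Of the 19 measured genes of the PERK and ATF4 branch, 6 were higher and none lower at 2 h, 10 higher and 2 lower at 4 h, and 11 higher and 3 lower at 6 h. For this list and those below, the shares over the whole array were 1.50% (higher) and 1.19% (lower) at 2 h, 12.8% and 14.1% at 4 h, and 15.0% and 14.7% at 6 h. The branch had a median log2 difference of 0.21, 0.40 and 0.32 where all genes had 0.0043, 0.0023 and -0.014. Chac1, an enzyme that degrades glutathione and a target of this branch, changed most, by 2.86 ± 0.17 at 2 h, 3.12 ± 0.17 at 4 h and 3.14 ± 0.17 at 6 h. Trib3, a pseudokinase that ATF4 induces, had means of 8.85 without RA, 9.95 at 2 h, 10.02 at 4 h and 10.44 at 6 h. It rose by 1.10 ± 0.081 at 2 h and 1.59 ± 0.081 at 6 h (SE, adjusted p = 1.41e-05 and 2.31e-07), and rose again between 4 and 6 h (0.42 ± 0.081, adjusted p = 0.0481). Atf3, a stress-induced transcription factor, rose by 0.93 ± 0.12 at 2 h. Ppp1r15b, the constitutive subunit of the eIF2α phosphatase, rose by 0.54 ± 0.099 at 2 h and was lower at 4 h than at 2 h by 0.55 ± 0.099. The proapoptotic gene Bcl2l11 rose by 0.85 ± 0.083 at 4 h and 1.04 ± 0.083 at 6 h.

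Among 12 further sensors and transcription factors, 1 was lower at 2 h, 5 were higher and 2 lower at 4 h, and 4 higher and 1 lower at 6 h. Nfyb, a subunit of the NF-Y factor that binds CCAAT, rose by 0.77 ± 0.083 at 4 h and 0.49 ± 0.083 at 6 h, and Nfya by 0.41 ± 0.068 at 4 h. Atf6b, the relative of Atf6, rose by 0.35 ± 0.064 and 0.47 ± 0.064. Mbtps2, the protease that makes the final cut in ATF6, fell by 0.36 ± 0.087 at 4 h. Creb3l2, a further ER-anchored transcription factor, fell by 0.44 ± 0.079 at 2 h.

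The remaining lists held both rises and falls, and none of their genes passed at 2 h. There 2 to 6 genes of each list had an unadjusted p under 0.05, as had 3172 of the 18194 genes. Of 38 other disulfide isomerases, oxidases and folding enzymes, 4 were higher and 9 lower at 4 h and 5 higher and 13 lower at 6 h. In this list the prolyl isomerase gene Fkbp11 fell by 0.62 ± 0.080 at 4 h and 0.68 ± 0.080 at 6 h, the thioredoxin-domain gene Txndc16 by 0.58 ± 0.10 and 0.81 ± 0.10, and the calnexin relative Clgn rose by 0.82 ± 0.17 at 6 h. Of 21 genes of the translocon, signal peptidase and signal recognition, 5 were higher and 2 lower at 4 h and 6 higher and 3 lower at 6 h. Both chains of the signal recognition receptor rose at 4 h, Srpr by 0.28 ± 0.064 and Srprb by 0.33 ± 0.083, while Tram2 was lower (-0.41 ± 0.063). Of 22 genes of glycan transfer and quality control, 2 were higher and 4 lower at 4 h and 3 higher and 6 lower at 6 h. Here the mannosidases moved apart, since Man1c1 fell by 0.71 ± 0.099 and 0.64 ± 0.099 and Man1a2 rose by 0.30 ± 0.065 and 0.51 ± 0.065. Man1a was lower, at -0.32 ± 0.078 and -0.38 ± 0.078. Of 33 other genes of ER-associated degradation, 5 were higher and 5 lower at 4 h and 5 higher and 3 lower at 6 h. Nploc4 and Ufd1 encode the adaptors of the p97 segregase that pulls substrates from the membrane. Nploc4 rose by 0.40 ± 0.069 at 4 h and 0.29 ± 0.069 at 6 h, and Ufd1 by 0.38 ± 0.078 at 6 h. Other genes of this list were lower. Faf1 gave -0.27 ± 0.056 at 4 h and -0.30 ± 0.056 at 6 h. At 4 h Yod1 gave -0.30 ± 0.087 and Ube2g1 -0.30 ± 0.070.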

How the data were processed

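RNA of 12 KH2 cell samples, 3 in each of 4 groups named from the labels' RA exposure, was measured on Affymetrix arrays after labelling of 200 ng RNA, per the labels' protocols. The authors deposited log2 signal for 45101 probe sets per array. The submitters' processing notes list limma 3.4.3, and the method of background correction and normalization is not given in the sources used here, so a global difference between arrays could have been removed before deposit. No further normalization was applied.

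Platform annotation assigned 34958 probe sets to 1 gene, 932 to several and 9211 to none. Those of 1 gene were kept, and the brightest on average over all arrays stood for each of 18194 genes. The main model, run in R 4.3.3, was a limma 3.58.1 fit of 4 group means to the 12 arrays with moderated variances (8 residual degrees of freedom and 3.78 from the prior). A call means an adjusted p under 0.05 (Benjamini-Hochberg) across all genes of a comparison. The fit was tested on simulated arrays with independent noise and known changes in few genes. That setting had no outlying array, so it says nothing about the part of untreated replicate C. Differences are of log2 values, and errors given with them are standard errors from that model.

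The 34 members, the 6 pathway lists and the 3 marker lists were chosen with earlier results of these data known. All members were accounted for. From each pathway list, up to 4 genes a comparison could be named, those with the largest change among called genes whose arrays did not overlap. Listed genes without a probe set of their own were not analysed here. Promoter windows came from a RefSeq table of GRCm38.p6, with 32851 windows of 27025 genes. Alternatives changed 1 choice at a time. They rescaled the arrays (quantiles, or centring on medians), averaged the probe sets per gene, tested each probe set, dropped those with cross-hybridizing suffixes, or removed dim genes. Others used a robust variance trend, weighted arrays, the 6 compared arrays alone, replicate letter as a block, or thresholds of 0.01 and 0.10, or left out each array in turn. Tables and figures were made in Python 3.11.15 with pandas 2.3.3, numpy 2.4.6 and matplotlib 3.10.9. With 3 arrays a group, the number of arrays limits the precision of every value.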

Additional observations from a re-analysis of the deposited data

Results flagged for a closer look

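For 11 of the 34 genes the difference from untreated cells was not the same at 4 h as at 2 h of RA, by the direct comparison of those groups in limma, which tests the change itself and does not separate RA from time in its medium. In 6 the signal was higher at 4 h: Xbp1 (log2 0.82), Ern1 (0.76), Syvn1 (0.53), Edem3 (0.49), Eif2ak3 (0.45) and Sel1l (0.19). In 5 it was lower at 4 h: Sil1 (-1.05), Sdf2l1 (-0.46), Atf6 (-0.40), Derl3 (-0.32) and Manf (-0.19). Among all genes, 24.6% differed in this comparison, against 32.4% of the 34. Herpud1, which changed most at 2 h, is not among the 11.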

How the results depend on the processing

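Calls that all 22 alternative fits kept were those of Herpud1 at 2, 4 and 6 h, of Sil1, Sdf2l1, Xbp1, Syvn1 and Edem3 at 4 and 6 h, and of Sil1, Sdf2l1, Xbp1, Syvn1 and Edem3 between 4 and 2 h. Fewer than 11 of the 22 kept the calls of Ero1b (9) and Eif2ak3 (7) at 6 h and of Manf (10) and Sel1l (6) between 4 and 2 h. The count of members called at 4 h was 9 and became 16 (8 higher and 8 lower) with the dim filter and with the trended and robust model, and 17 at an adjusted p under 0.10; leaving out 1 array gave 7 to 12. At 6 h the count of 11 became 7 in a fit of only the 6 arrays compared and 7 at an adjusted p under 0.01, and leaving out 1 array gave 7 (without RA 6 h replicate A) to 15 (without untreated replicate C). Between 4 and 2 h the count of 11 became 7 with averaged probe sets and 6 at an adjusted p under 0.01, and leaving out 1 array gave 7 (without RA 2 h replicate A or B or RA 4 h replicate B) to 13. Between 6 and 4 h the count of 0 became 1 with array weights and 0 to 1 on leaving out 1 array, in both cases Sel1l, lower at 6 h, without untreated replicate C in the second. The cause of these moves was not tested, other than the construction of the thresholds and of the smaller fits. The shares of all genes called under the same settings are not given here. The counts therefore do not show whether the members moved more than the whole array. In the fit of every probe set a gene counted as called if any of its probe sets was, so another probe set could stand for it. A dimmer probe set of opposite sign did so for Ssr1 (-0.445 at 4 h against no RA, -0.644 between 4 and 2 h), Edem1 (0.228 and 0.248) and Erlec1 (0.593 between 4 and 2 h), while the brightest kept its value. Another probe set also kept the 4 h call of Dnajc3 and the 6 h call of Ero1b, whose brightest probe sets did not pass there (adjusted p = 0.0529 and 0.0702). With the mean of the probe sets the sign turned for Eif2ak3 at 6 h (-0.029). The main model took replicate letters as unpaired. Deviations from the group means of same-letter arrays correlated between -0.128 and 0.315, over 0.1 in 4 of 18 pairs. These values do not settle whether the letters pair the samples. With the replicate block, 1, 12 and 11 members were called at 2, 4 and 6 h against no RA, 9 between 4 and 2 h, 0 between 6 and 4 h and 13 by the F test. Array weights gave untreated replicate C a weight of 0.177. Arrays with 3 samples a group and values that were not tested against background limit what small differences can show.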
